A study of Arabidopsis with 22 samples.

Results

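The comparison described here asks whether the effect of *lux-1* on the Arabidopsis transcriptome differed between 2 times of day in plants with a wild-type *ACD6* gene. It uses 12 of the 22 libraries of the study, 3 each of *lux-1* at ZT13, Col-0 at ZT13, *lux-1* at ZT1 and Col-0 at ZT1. The other 10 libraries, of *acd6-1lux-1* and *acd6-1* plants, serve below as a set with no library in common. Col-0 is the wild type, and *lux-1* is a line in that background with a loss-of-function allele of *LUX*, represented by 1 allele only. Neither genotype received a treatment. Whole plants were taken at an age of 25 days, 13 or 1 h after light onset in a cycle of equal light and dark periods, so that ZT13 fell in the dark and ZT1 in the light. In whole plants, fewer cells of a type and less RNA per cell cannot be told apart.

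*LUX* encodes a GARP-family transcription factor that binds DNA for the evening complex, which it forms with the products of *ELF3* and *ELF4*. The complex accumulates at dusk and represses, during the night, clock genes of the day such as *PRR9*, *PRR7* and *GI*, the *LUX* gene itself, and growth genes such as *PIF4* and *PIF5*. *CCA1* and *LHY*, transcription factors of the early morning, in turn repress evening genes, and these loops link genes of both phases.

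Expression was given as RPKM, the reads of a transcript scaled to its length and to the mapped reads of the library, and was analyzed as log2(RPKM + 1), a scale that understates the change of weakly expressed genes. For each gene the difference between *lux-1* and Col-0 was taken at ZT13 and at ZT1, and the interaction is the first difference minus the second. A positive interaction therefore means that *lux-1* was higher relative to Col-0 at ZT13 than at ZT1, which can come from a higher level at ZT13, a lower level at ZT1 or both. The test was that of limma, with p values adjusted by Benjamini-Hochberg over the 21076 genes tested. A gene passed at an adjusted p under 0.1, and it was called when the interaction also exceeded 1 in size. Replicates are separate biological samples by the study's methods, and how many plants each pools is not given in the sources used here.

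The 12 libraries had 11628138 to 14252869 mapped reads, 80.24% to 81.59% of their reads. Replicates of a group correlated at 0.9867 or more across genes, and no pair agreed within sampling noise. Differences between replicates reached 18.39 times the counting variance in the *lux-1* groups, against at most 7.9 in the Col-0 groups. The pairs with *lux-1* ZT13 replicate 2 were at 17.05 and 18.39, and those with *lux-1* ZT1 replicate 1 at 14.54 and 16.41, while the remaining *lux-1* pairs were at 8.04 and 4.63. The leaf marker genes summed to 47877 RPKM or more in each library. The 8 root markers summed to at most 27.6 RPKM, with between 1 and 4 of them listed at 0 in each library, although whole plants are named as the tissue.

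The *lux-1* effect differed between the times for 3015 genes, 866 with a positive interaction (4.11% of the genes tested) and 2149 with a negative one (10.2%). Of these, 395 positive (1.87%) and 306 negative (1.45%) genes were called. The 3015 genes became 1813 when Col-0 ZT1 replicate 2 was left out, and 1884 or 1939 when replicate 1 or 3 of Col-0 at ZT13 was. The balance of the 3015 genes depended on scaling, since the median of all genes was -0.11 with the deposited values. With median-of-ratios scaling it was 0.001, and 1059 genes passed with a positive and 972 with a negative interaction, while 447 and 220 were called. Gene lists below are therefore read against a median of -0.11, and their counts after this scaling are given where a direction differs by more than 1 gene. Their counts are likewise to be read beside the 4.11% and 10.2% of all genes that passed in each direction. The lists were written with earlier results of these data known, so their counts and medians describe the listed genes and are no independent test.

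For most of the called genes *lux-1* and Col-0 differed at ZT1 and did not pass at ZT13. Of the 395 genes with a positive interaction, 256 were lower in *lux-1* at ZT1 and did not pass at ZT13, 75 were higher at ZT13 and did not pass at ZT1, and 41 were higher at ZT13 and lower at ZT1. Another 17 passed at neither time, 3 were higher at both times and 3 were lower at both. Of the 306 genes with a negative interaction, 217 were higher in *lux-1* at ZT1 and did not pass at ZT13, 28 were lower at ZT13 and did not pass at ZT1, and 35 were lower at ZT13 and higher at ZT1. A further 20 passed at neither time, and 6 changed in the same direction at both. These classes follow from the 2 effects that make up the interaction and carry no test of their own.

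**Figure D1:**
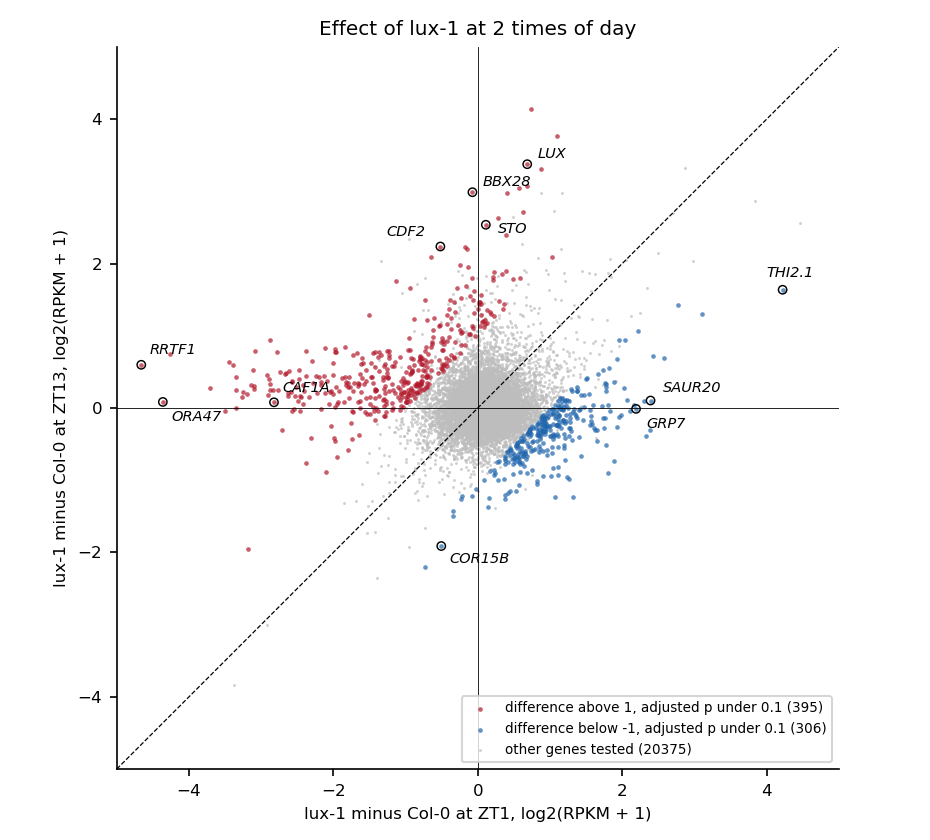
Difference between *lux-1* and Col-0 at ZT13 (vertical axis) against that at ZT1 (horizontal axis), both on log2(RPKM + 1), for the 21076 genes tested. Red points are the 395 genes called with a positive interaction and blue points the 306 called with a negative one, and the dashed line marks equal effects. The red points form an arm to the left, of genes lower in *lux-1* at ZT1 such as *ORA47* (-4.36), and an arm upward, of genes higher at ZT13 such as *BBX28* (2.99), while the blue points lie to the lower right.

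The *LUX* transcript itself had a positive interaction, 2.69 (standard error 0.22, adjusted p = 1.9e-05). It was measured at ZT13 at 71.4, 81.0 and 75.6 RPKM in *lux-1* libraries, against 6.10, 6.28 and 6.84 RPKM in Col-0 libraries. The ZT1 libraries had 7.48, 5.19 and 4.43 RPKM in *lux-1* plants, against 3.53, 2.43 and 3.42 RPKM in Col-0 plants. *lux-1* thus lay above Col-0 without overlap at both times, by 3.38 at ZT13 and 0.69 at ZT1 on the log2 scale. The difference between ZT13 and ZT1 was 3.55 in *lux-1* and 0.85 in Col-0. The mutation is a point change, so reads from the gene remain and the transcript does not check the genotype by its absence.

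Of 14 morning and daytime clock genes 10 passed with a positive interaction and 1 with a negative one, with a median of 1.15, and of 16 afternoon and evening clock genes 2 passed with a positive and 6 with a negative interaction, with a median of -0.22. *CCA1* and *LHY*, the MYB genes of the morning, had interactions of 1.3, adjusted p = 0.011, and 1.01, adjusted p = 0.0025. *LHY* had 1.18, 1.63 and 0.936 RPKM in *lux-1* plants, against 0.666, 0.833 and 0.962 RPKM in Col-0 plants at ZT13. In the morning *LHY* had 118, 104 and 107 RPKM in *lux-1* plants, against 186, 179 and 178 RPKM in Col-0 plants. Its ZT13 libraries overlapped between the genotypes, and its morning level was lower in each *lux-1* library (-0.72, adjusted p = 0.0015).

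The *LNK* genes, coactivators that work with the RVE proteins in the morning, were higher in *lux-1* at night. *LNK1* had the largest interaction of the morning and daytime list, 2.35 (standard error 0.22, adjusted p = 6.7e-05). At ZT13 it had 4.50, 8.33 and 5.38 RPKM in *lux-1* libraries, against 0.556, 0.330 and 0.619 RPKM in Col-0 libraries. At ZT1 it had 79.4, 71.8 and 71.1 RPKM in *lux-1* libraries, against 79.7, 81.0 and 85.5 RPKM in Col-0 libraries. The libraries did not overlap at either time, with *lux-1* above Col-0 at ZT13 and narrowly below it at ZT1. *LNK2*, *LNK3* and *LNK4* followed with 1.64, 1.71 and 1.43 (adjusted p = 0.00016, 0.023 and 0.0055). For all 4 genes replicate 2 of *lux-1* at ZT13 was the highest, as it was for *CCA1* with 2.52 RPKM against 0.765 and 1.28 RPKM in the other *lux-1* libraries. *PRR7*, a pseudo-response regulator of the day and a target of the evening complex, was higher in *lux-1* at both times (1.79 at ZT13 and 0.49 at ZT1), with an interaction of 1.29, adjusted p = 0.00013. The MYB-like genes *RVE1* and *RVE8* passed with 1.36 and 0.97 (adjusted p = 0.0012 and 0.003). *RVE4*, with 0.38 (adjusted p = 0.094), passed in only 3 of 12 fits that each left out 1 library. *PRR9* did not pass (0.34, adjusted p = 0.68).

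*RVE2*, which unlike the other morning list members had more transcript at ZT13 than at ZT1, was the one with a negative interaction, -1.08 (standard error 0.22, adjusted p = 0.012). The 6 evening genes with a negative interaction shared this form, with more transcript at ZT13 in Col-0 and a higher level in *lux-1* at ZT1. *GRP7*, an RNA-binding protein gene under clock control, had 853, 891 and 1172 RPKM in *lux-1* libraries, against 996, 912 and 1005 RPKM in Col-0 libraries, at ZT13. At ZT1 *GRP7* had 270.3, 205 and 222 RPKM in *lux-1* libraries, against 50.2, 50.6 and 48.6 RPKM in Col-0 libraries. The ZT13 values overlapped while all *lux-1* values at ZT1 were above those of Col-0, and the interaction was -2.20 (standard error 0.17, adjusted p = 1.5e-05).

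*ELF4*, a partner of LUX in the evening complex, had 11.6, 42.4 and 23.2 RPKM in *lux-1* libraries, against 33.8, 33.6 and 31.1 RPKM in Col-0 libraries at ZT13. Its ZT1 values were 3.29, 3.19 and 4.36 RPKM in *lux-1* libraries, against 0.444, 0 and 0.659 RPKM in Col-0 libraries. The *lux-1* libraries at ZT13 spread widely and overlapped Col-0, those at ZT1 did not overlap, and the interaction was -2.29 (standard error 0.48, adjusted p = 0.015), which did not pass by limma voom. *ELF3*, the other partner, had -0.86 (adjusted p = 0.021), *BOA*, the closest relative of *LUX*, -0.75 (adjusted p = 0.093), *PRR3* -0.69 (adjusted p = 0.026) and AT4G33980 -0.57 (adjusted p = 0.035). *BOA* passed in only 3 of 12 fits with 1 library left out. *GI*, a photoperiod control gene of the afternoon and evening list and a target of the evening complex, had a positive interaction, 1.07 (standard error 0.24, adjusted p = 0.019). It was measured at 5.25, 9.48 and 7.04 RPKM in *lux-1* libraries, against 1.12, 0.697 and 0.897 RPKM in Col-0 libraries, at ZT13. In the light it had 21.4, 16.8 and 19.8 RPKM in *lux-1* plants, against 8.73, 8.75 and 9.45 RPKM in Col-0 plants. *GI* was thus higher in *lux-1* at both times, by 2.09 and 1.02. *PRR5* also lay above Col-0 at both times (1.16 and 1.15) with an interaction of 0.01 (adjusted p = 0.99), and *TOC1* did not pass (0.29, adjusted p = 0.23).

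**Figure D2:**
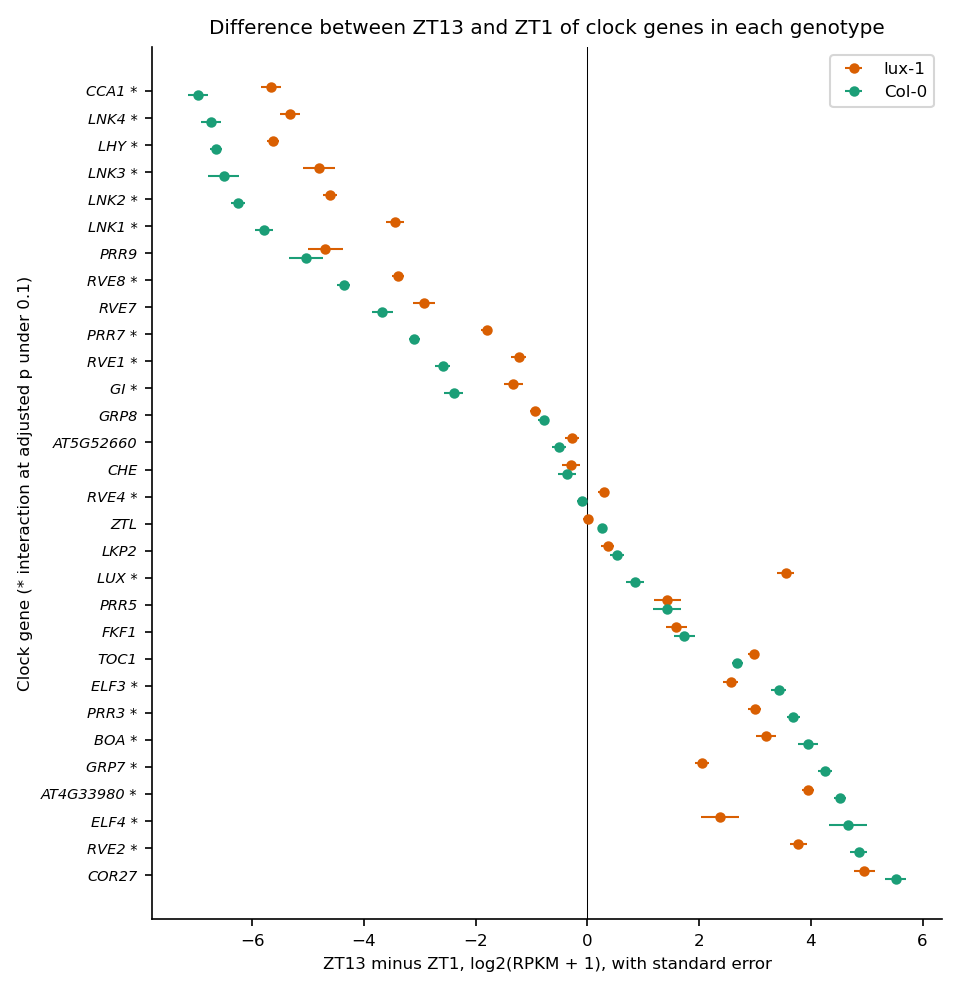
Difference between ZT13 and ZT1 on log2(RPKM + 1) for the 30 genes of the clock lists, in *lux-1* (orange) and Col-0 (green), with standard errors from the fit, ordered by the value in Col-0. Asterisks mark the 19 genes with an interaction at an adjusted p under 0.1. *GRP7* lies at 2.05 in *lux-1* against 4.26 in Col-0, and *LUX* at 3.55 against 0.85.

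Of 24 light signaling and B-box genes 13 passed with a positive interaction and 1 with a negative one, with a median of 0.72. Of the 13, 10 were higher in *lux-1* at ZT13 and 6 were lower at ZT1. *BBX28*, a B-box protein gene that acts in photomorphogenesis, had 9.75, 10.9 and 9.56 RPKM in *lux-1* libraries, against 0.384, 0.313 and 0.482 RPKM in Col-0 libraries at ZT13. At ZT1 the values were 94.3, 88.1 and 82.8 RPKM in *lux-1* plants, against 99.0, 88.4 and 91.8 RPKM in Col-0 plants. The groups were far apart at ZT13 and overlapped at ZT1, and the interaction was 3.06 (standard error 0.12, adjusted p = 2.1e-07). *STO*, a negative regulator of light responses also known as *BBX24*, followed the same form. It had 85.9, 88.3 and 81.4 RPKM in *lux-1* libraries, against 14, 12.6 and 15.0 RPKM in Col-0 libraries at ZT13. At ZT1 *STO* had 394, 416 and 438 RPKM in *lux-1* plants, against 392, 375 and 386 RPKM in Col-0 plants, where *lux-1* was also above Col-0 but by little, and its interaction was 2.43 (standard error 0.10, adjusted p = 2.1e-07). Its relative *STH* had 1.95 and the heat- and light-related *BBX18* 1.86 (adjusted p = 1.6e-06 and 2.3e-05). *HY5*, the central activator of photomorphogenesis, did not pass (-0.49, adjusted p = 0.11).

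The antenna and pigment genes of photosynthesis followed. Of 19 light-harvesting antenna genes 12 passed, each with a positive interaction and a higher level in *lux-1* at ZT13, and the median of the list was 0.89. *LHCB2.1*, an antenna protein gene of photosystem II, had 82.8, 75.1 and 88.9 RPKM in *lux-1* libraries, against 21.3, 19.3 and 21.0 RPKM in Col-0 libraries at ZT13. The ZT1 libraries had 3705, 4994 and 4873 RPKM in *lux-1* libraries, against 5035, 4871 and 4808 RPKM in Col-0 libraries. The interaction was 2.08 (standard error 0.15, adjusted p = 1e-05), while the level at ZT13 in *lux-1* still lay far below that at ZT1 (ZT13 minus ZT1 of -5.75 in *lux-1* and -7.83 in Col-0). *LHCB2.2*, *LHCA4* and *LHCB3* passed with 2.23, 1.67 and 1.56 (adjusted p = 1.8e-05, 3.5e-05 and 7.7e-05). The 4 genes *LHCB1.1* to *LHCB1.4* did not pass, with interactions between 0.09 and 0.38. *LHCB1.5*, named after its values were seen, passed with 1.14 (adjusted p = 0.023). Since *LHCB1* and *LHCB2* genes are close paralogs the split of reads among copies is uncertain. Of 11 chlorophyll synthesis genes 5 passed with a positive and 2 with a negative interaction. *CAO*, which makes chlorophyll b, had 1.75, *CHLH*, a subunit of magnesium chelatase, 1.42, *CHL27* 0.85 and *HEMA1*, the first enzyme of the pathway in plastids, 0.74 (adjusted p = 2.3e-05, 2.3e-05, 0.0097 and 0.0052). For *CAO* the ZT13 values were 34.0, 30.2 and 32.7 RPKM in *lux-1* libraries, against 10.5, 10.9 and 10.3 RPKM in Col-0 libraries. The 2 with a negative interaction, *PORA* and *PORB*, encode the enzymes that need light to reduce protochlorophyllide, and they are named after their values were seen (-1.18 and -0.95, adjusted p = 0.024 and 0.046). Both genes were higher in *lux-1* at ZT1 (1.22 and 1.02).

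Several regulators of growth and flowering were also higher in *lux-1* at ZT13. Of 17 growth and shade genes 4 passed with a positive and 1 with a negative interaction, or 6 and 1 after median-of-ratios scaling. *PIF5*, a basic helix-loop-helix factor that promotes elongation, had 23.65, 29.0 and 25.6 RPKM in *lux-1* libraries, against 9.45, 7.29 and 9.27 RPKM in Col-0 libraries at ZT13. In the morning it had 89.3, 103 and 101 RPKM in *lux-1* libraries, against 122, 128 and 133 RPKM in Col-0 libraries. *lux-1* was thus above Col-0 in the dark and below it in the light, with an interaction of 1.87 (standard error 0.15, adjusted p = 1.5e-05). *PIF4*, its close relative, had 1.45 (standard error 0.20, adjusted p = 0.0011), with 12.8 ± 1.65 RPKM in *lux-1* plants, against 3.95 ± 0.270 RPKM in Col-0 plants at ZT13 (SD, n = 3 each). *PIF1* passed with 0.68 and the brassinosteroid synthesis gene *BR6OX2* with -0.93 (adjusted p = 0.048 and 0.024). Of 11 flowering and CDF genes 6 passed with a positive and 1 with a negative interaction, and the 6 were higher in *lux-1* at ZT13. The CDF genes encode DOF factors that hold back *CO* and *FT*. *CDF2* had 7.45, 13 and 8.47 RPKM in *lux-1* libraries, against 1.38, 1.17 and 1.06 RPKM in Col-0 libraries at ZT13. At ZT1 *CDF2* had 8.85, 6.74 and 6.87 RPKM in *lux-1* plants, against 10.8, 11.4 and 11 RPKM in Col-0 plants, all *lux-1* values being lower. Its interaction was 2.75 (standard error 0.24, adjusted p = 2.8e-05), so that *CDF2* differed by 0.30 between the times in *lux-1* and by -2.46 in Col-0. *CDF1* and *CDF3* passed with 1.11 and 0.96 (adjusted p = 0.00012 and 0.00089). *SOC1*, a MADS-box gene that promotes flowering, was higher in *lux-1* at both times, more so at ZT1 (0.55 and 1.24), with an interaction of -0.68, adjusted p = 0.011. The florigen genes *FT* and *TSF* passed at the edge of the threshold (1.22 and 1.12, adjusted p = 0.056 and 0.088, named after their values were seen). In the flowering and CDF list 3 genes passed with a positive interaction when Col-0 ZT1 replicate 2 or 3, *lux-1* ZT1 replicate 3, Col-0 ZT13 replicate 2 or *lux-1* ZT13 replicate 1 was left out.

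Auxin-responsive *SAUR* genes went the other way. All 8 *SAUR* genes of the list, *SAUR61* to *SAUR68*, neighbors on chromosome 1 whose products act in cell expansion, passed with a negative interaction, with a median of -1.26, and all were higher in *lux-1* at ZT1. *SAUR63* had 0.346, 0.708 and 0.355 RPKM in *lux-1* libraries, against 1.01, 0.329 and 0.571 RPKM in Col-0 libraries at ZT13. At ZT1 it had 14.8, 16.3 and 16 RPKM in *lux-1* libraries, against 4.56, 4.07 and 3.46 RPKM in Col-0 libraries. The morning groups did not overlap and the night values were near 0 in both genotypes, and the interaction was -1.88 (standard error 0.23, adjusted p = 0.0004). *SAUR65*, *SAUR64* and *SAUR62* had -2.21, -2.15 and -1.43 (adjusted p = 0.0011, 0.0019 and 0.0068). Among the 10 most negative interactions under the rule for named genes were the further family members *SAUR29* (-2.71) and *SAUR20* (-2.29, adjusted p = 0.00055 and 0.023). *SAUR20* did not pass with a pseudocount of 0.1, by limma voom, edgeR or DESeq2. The counts of the list rest on low values and on copies that may share reads: 6 of the 8 passed after median-of-ratios scaling, 2 by limma voom, 2 by edgeR and 3 by DESeq2 on recovered reads. The number was 4 without Col-0 ZT1 replicate 2 or 3 or Col-0 ZT13 replicate 3, and 5 without Col-0 ZT13 replicate 1 or *lux-1* ZT13 replicate 1 or 3. It was 6 in each remaining fit with 1 library left out, so all 8 passed in none of these fits.

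Of 19 starch metabolism genes 10 passed with a negative and 3 with a positive interaction, with a median of -0.44, and 9 of the 10 were higher in *lux-1* at ZT1. *PHS2*, a cytosolic glucan phosphorylase, had 126, 120.1 and 111 RPKM in *lux-1* libraries, against 114, 113 and 118 RPKM in Col-0 libraries, at ZT13. Its ZT1 values were 62.8, 68.5 and 89.8 RPKM in *lux-1* libraries, against 24.9, 21.0 and 24.6 RPKM in Col-0 libraries. The ZT13 values overlapped, and the interaction was -1.55 (standard error 0.16, adjusted p = 0.00013). The debranching enzyme gene *ISA3* had -1.11 and the glucan phosphorylating enzyme gene *PWD* -0.85 (adjusted p = 0.00076 and 0.0003). The remaining 7 genes with a negative interaction, among them *GWD1* and *DPE2*, ranged from -0.94 to -0.44. *BAM9*, a beta-amylase-like gene with its maximum in the morning, had the opposite sign (1.00, adjusted p = 0.00035).

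**Figure D3:**
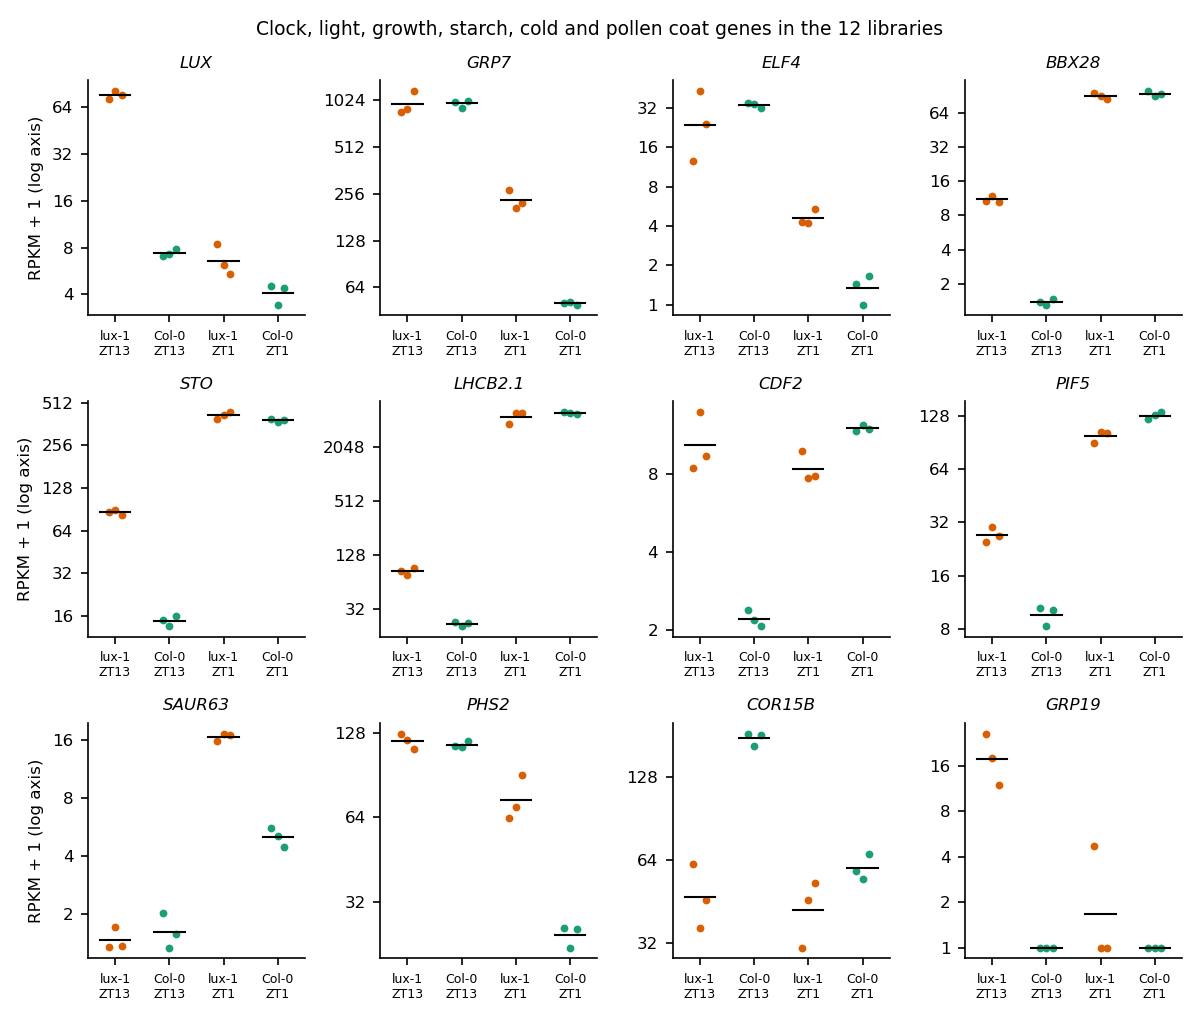
RPKM + 1 on a log axis in each of the 12 libraries for 12 genes, with *lux-1* in orange and Col-0 in green, ZT13 left of ZT1, and bars at the mean of the log values. *LUX*, *BBX28*, *STO*, *LHCB2.1*, *CDF2* and *PIF5* separate at ZT13, *GRP7*, *ELF4*, *SAUR63* and *PHS2* at ZT1, *COR15B* lies lower in *lux-1* at ZT13, and *GRP19* was listed at 0 in all 6 Col-0 libraries.

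Among genes with a mean above 5 RPKM in at least 1 group and libraries that did not overlap at 1 of the times, the 10 largest interactions belonged mostly to genes known to respond rapidly to stress, wounding or touch, and each came with a lower level in *lux-1* at ZT1. Of 30 rapid stress transcription factor genes 25 passed, each with a positive interaction, and 23 were called, with a list median of 2.29 against -0.11 over all genes. Of the 25, 24 were lower in *lux-1* at ZT1 and 1 was higher at ZT13. The median difference between *lux-1* and Col-0 in this list was 0.39 at ZT13 and -1.84 at ZT1. *ORA47*, an AP2/ERF factor that activates jasmonic acid (JA) synthesis, had 273, 246 and 260.2 RPKM in *lux-1* libraries, against 178, 294 and 279.5 RPKM in Col-0 libraries, at ZT13. The ZT1 libraries had 6.99, 8.20 and 11.6 RPKM in *lux-1* libraries, against 163, 219.6 and 222 RPKM in Col-0 libraries. Each *lux-1* value at ZT1 was below all the other 9 values, and the interaction was 4.45 (standard error 0.28, adjusted p = 5e-06). *RRTF1*, a redox- and wound-responsive AP2/ERF gene, had the largest of these, 5.26 (standard error 0.57, adjusted p = 0.00017). It had 161, 146 and 215 RPKM in *lux-1* libraries, against 62.0, 152 and 152 RPKM in Col-0 libraries at ZT13. At ZT1 *RRTF1* had 4.50, 0.758 and 1.81 RPKM in *lux-1* libraries, against 58.7, 82.0 and 87.9 RPKM in Col-0 libraries, again with the *lux-1* values below all others.

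*ZAT10*, a zinc-finger repressor of stress responses, had 34.5, 39.1 and 30.3 RPKM in *lux-1* libraries, against 225, 258 and 279 RPKM in Col-0 libraries at ZT1 and an interaction of 3.09 (standard error 0.17, adjusted p = 1.7e-06). *ERF104*, an ethylene-response factor of immune signaling, had 8.49, 11.7 and 9.63 RPKM in *lux-1* libraries, against 98.1, 104 and 93.3 RPKM in Col-0 libraries at ZT1, with an interaction of 3.38 (standard error 0.18, adjusted p = 1.5e-06). For both genes each *lux-1* library at ZT1 lay below each Col-0 library, and the ZT13 libraries overlapped for *ERF104* (at ZT13 285, 291 and 335 RPKM in *lux-1* plants, against 219, 306 and 279 RPKM in Col-0 plants). *DREB26* passed with 2.95 (adjusted p = 1.2e-06). Beyond the list's leading members, the 10 largest interactions included the zinc-finger gene *SZF1* (3.98), the ethylene synthesis gene *ACS6* (3.98), the immune repressor *WRKY40* (3.87), the AP2 gene *DDF1* (3.82), the nudix hydrolase gene *NUDT4* (3.78), the BTB-domain gene *BT5* (3.65) and AT4G29780 (5.01), with adjusted p between 8.7e-06 and 0.0015. *CYP707A3*, an enzyme of abscisic acid breakdown, belonged to the same range with 3.55 (standard error 0.45, adjusted p = 0.00055).

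Of 18 touch, calcium and early defense genes 13 passed with a positive interaction, with a median of 1.62, and the 13 were lower in *lux-1* at ZT1. *TCH2*, a calmodulin-like gene first known from mechanical stimulation, had 330.5, 325 and 379 RPKM in *lux-1* libraries, against 275, 366 and 339 RPKM in Col-0 libraries at ZT13. In the morning it had 90.5, 93.3 and 89.0 RPKM in *lux-1* libraries, against 336, 385 and 338 RPKM in Col-0 libraries. The ZT13 libraries overlapped and those at ZT1 were far apart. The interaction of *TCH2* was 2.02 (standard error 0.15, adjusted p = 1e-05). *CAF1A*, a deadenylase gene induced by wounding and other stresses, had 47.7, 53.0 and 47.9 RPKM in *lux-1* libraries, against 353, 365 and 351 RPKM in Col-0 libraries at ZT1 and an interaction of 2.90 (standard error 0.13, adjusted p = 3.6e-07). *BAP1*, a negative regulator of cell death, and the protein phosphatase gene *AP2C1* passed with 2.93 and 3.21 (adjusted p = 1.1e-05 and 2.2e-05). At ZT13 the 18 genes summed to between 4040 and 4760 RPKM in *lux-1* and between 3219 and 4123 RPKM in Col-0. At ZT1 they summed to between 627 and 894 RPKM in *lux-1*, against 2132 to 2364 RPKM in Col-0, and none of them was at 0 in any library. The labels and methods give no order or time of harvest for single plants, so that handling that differed between genotypes at ZT1 and an effect of *lux-1* cannot be told apart for these genes.

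**Figure D4:**
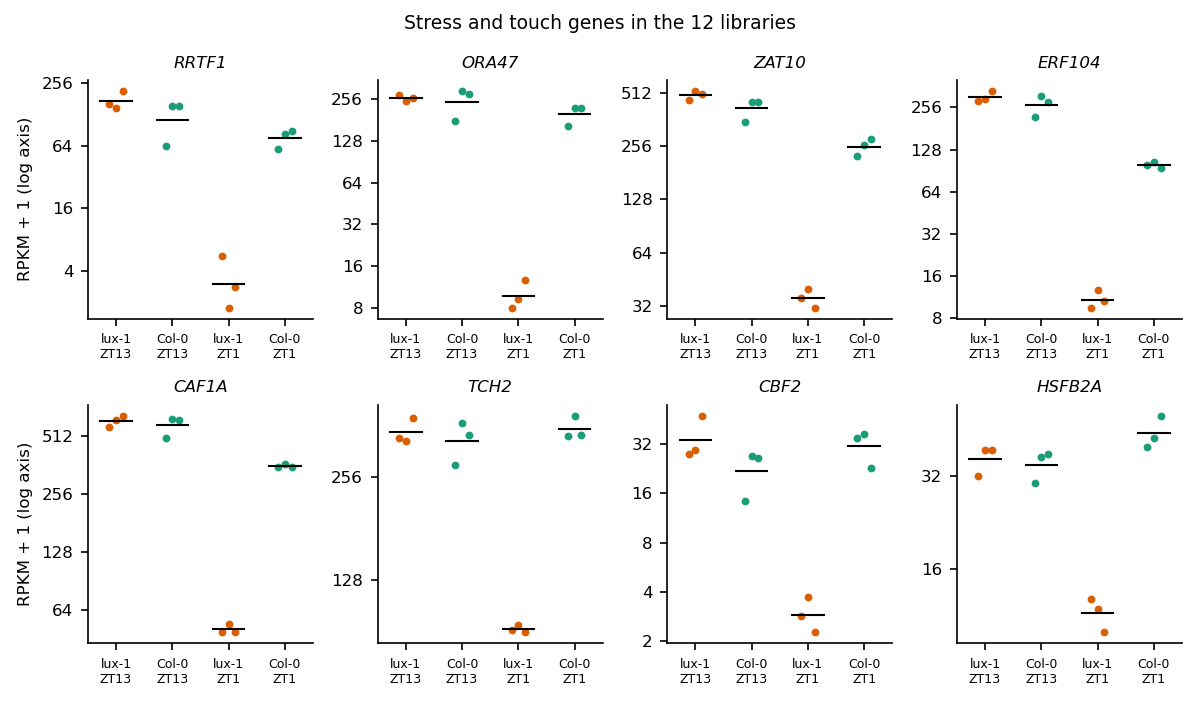
RPKM + 1 on a log axis in each of the 12 libraries for 8 stress, touch and heat genes, with *lux-1* in orange and Col-0 in green, ZT13 left of ZT1, and bars at the mean of the log values. In each panel the 3 *lux-1* libraries at ZT1 lie below the other 9, for *CAF1A* between 47.7 and 53.0 RPKM.

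Fewer heat shock and abscisic acid genes passed. Of 16 heat shock genes 5 passed with a positive interaction, 4 regulators and the chaperone gene *HSP70*, each lower in *lux-1* at ZT1, and the other 11 did not pass. *HSFB2A*, a heat shock factor, had 11.8, 10.9 and 8.95 RPKM in *lux-1* libraries, against 38.8, 41.8 and 49.4 RPKM in Col-0 libraries at ZT1 and an interaction of 2.01 (standard error 0.18, adjusted p = 4.4e-05). *HSFB2B*, the coactivator gene *MBF1C* and *HSFA2* had 1.18, 1.22 and 1.57 (adjusted p = 0.012, 0.013 and 0.067). *HSFA2* passed in 6 of 12 fits with 1 library left out and not by limma voom. Only 3 of the heat shock genes passed without Col-0 ZT1 replicate 2 or 3, *lux-1* ZT1 replicate 2 or Col-0 ZT13 replicate 3. Of 20 abscisic acid and drought genes 3 passed with a positive and 2 with a negative interaction, or 3 in all without replicate 2 or 3 of Col-0 at either time. *NCED3*, the rate-limiting enzyme of abscisic acid synthesis, had 1.36 (adjusted p = 0.056, passing in 8 of 12 such fits), the transcription factor gene *ABF1* -1.23 (adjusted p = 0.00097) and the drought-responsive *RD22* -0.76 (adjusted p = 0.0041).

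Of 16 cold response genes 4 passed with a positive interaction, all of them *CBF* genes, and 6 with a negative one, all of them *COR* or *KIN* genes, which CBF proteins are known to activate. When Col-0 ZT1 replicate 2 was left out, 2 passed with a positive and 5 with a negative interaction. *CBF2* had 26.8, 28.6 and 47.0 RPKM in *lux-1* libraries, against 13.5, 26.2 and 25.4 RPKM in Col-0 libraries at ZT13. At ZT1 it had 1.82, 2.70 and 1.25 RPKM in *lux-1* libraries, against 34.2, 36.2 and 22.0 RPKM in Col-0 libraries. Its *lux-1* values lay just above Col-0 at ZT13 and below all others at ZT1, with an interaction of 4.08 (standard error 0.41, adjusted p = 0.0001). *COR15B*, a chloroplast protein gene of freezing tolerance, had 61.2, 35.4 and 44.7 RPKM in *lux-1* libraries, against 182, 165 and 180.0 RPKM in Col-0 libraries at ZT13. At ZT1 the same gene had 29.9, 44.9 and 51.9 RPKM in *lux-1* plants, against 57.5, 53.4 and 66.3 RPKM in Col-0 plants. Its *lux-1* values lay below Col-0 at both times, and the difference passed at ZT13 (-1.91) but not at ZT1 (-0.51), for an interaction of -1.41 (standard error 0.29, adjusted p = 0.012). *KIN2* followed it (-1.07, adjusted p = 0.0051), and *COR413IM1* was lower in *lux-1* at ZT13 and higher at ZT1 (-0.96 and 1.24, interaction -2.20, adjusted p = 1.7e-05). *CBF1* was lower in *lux-1* at both times (-1.95 and -3.19), and it is named after its values were seen.

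The tandem genes *CBF1* to *CBF3* lie on chromosome 4, where other genes differed between the lines at both times. Across the genome 39 genes passed in the same direction with a size above 1 at ZT13 and at ZT1, and 19 of them were on chromosome 4, which holds 15.4% of the tested nuclear genes. A run from AT4G19050 to AT4G28085, chosen after its values were seen, holds 13 of the 39 and 769 (3.65%) of the tested genes. Of the interactions, 32 of the 769 genes were called, or 4.16%, against 3.33% of all genes. Whether sequence differences between the lines in this run bear on the *CBF* values was not tested.

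Genes of JA signaling passed in both directions. Of 26 genes 7 passed with a positive and 8 with a negative interaction, or 8 and 4 after median-of-ratios scaling. The 7 were *JAZ* repressor genes, *MYC2*, *JAM1* and the JA catabolism gene *CYP94B3*, and the 8 were the response genes *THI2.1*, *TAT3*, *VSP1* and *CLH1* and the regulators *MYC3*, *MYC4*, *NINJA* and *JAZ12*, several of them named after their values were seen. *JAZ7*, a repressor gene that JA itself induces, had 16.3, 9.24 and 9.10 RPKM in *lux-1* libraries, against 38.6, 38.6 and 40.1 RPKM in Col-0 libraries at ZT1 and an interaction of 2.46 (standard error 0.35, adjusted p = 0.0014). *JAZ1*, the basic helix-loop-helix repressor gene *JAM1* and *MYC2*, the main activator of JA responses, passed with 1.74, 1.16 and 1.1 (adjusted p = 0.0024, 0.005 and 0.013), each of them lower in *lux-1* at ZT1. *THI2.1*, a thionin gene induced by JA, had 71.6, 48.0 and 60.5 RPKM in *lux-1* libraries, against 35.9, 7.62 and 21.8 RPKM in Col-0 libraries at ZT13. Its ZT1 values were 254, 92.6 and 204 RPKM in *lux-1* libraries, against 14.9, 5.25 and 6.56 RPKM in Col-0 libraries. Each *lux-1* value lay above Col-0 at both times, and the difference passed at ZT1 (4.22, adjusted p = 0.00026) but not at ZT13 (1.64, adjusted p = 0.13), with an interaction of -2.58 (standard error 0.72, adjusted p = 0.048) that passed in 7 of 12 fits with 1 library left out. *JAZ5*, one of the genes whose promoter the study examined and named here for that reason, passed with 1.00 (standard error 0.32, adjusted p = 0.074), in 5 of those 12 fits. In the JA synthesis list of 14 tested genes 3 passed in each direction, *LOX4* with 1.51, and *AOC2*, *LOX2* and *AOC4* with -1.21, -1.17 and -0.57 (adjusted p = 0.024, 0.038, 0.036 and 0.031). The last 3 were higher in *lux-1* at ZT1. When Col-0 ZT1 replicate 3, Col-0 ZT13 replicate 1 or 3 or *lux-1* ZT13 replicate 3 was left out, 1 synthesis gene passed with a positive and 3 with a negative interaction. In the signaling list 6 and 5 passed in the absence of Col-0 ZT1 replicate 2.

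Of 24 salicylic acid (SA) genes 4 passed with a negative and 2 with a positive interaction, or 7 and 2 when *lux-1* ZT1 replicate 3 was left out. The counts were 3 and 2 without Col-0 ZT1 replicate 2, Col-0 ZT13 replicate 1 or 2 or *lux-1* ZT13 replicate 1. *PR2*, a glucanase gene induced by SA, had 188, 422 and 227 RPKM in *lux-1* libraries, against 422, 319 and 351 RPKM in Col-0 libraries at ZT13. The ZT1 libraries had 95.2, 83.2 and 76.5 RPKM in *lux-1* libraries, against 28, 17.1 and 37.1 RPKM in Col-0 libraries. Its ZT13 libraries overlapped and its *lux-1* libraries at ZT1 lay above Col-0, with an interaction of -2.12 (standard error 0.41, adjusted p = 0.0097). *PR5* passed with -1.44 (adjusted p = 0.013). *CBP60G*, an activator of SA synthesis, and the SA receptor gene *NPR3* had 1.2 and 1.41 (adjusted p = 0.015 and 0.0021), both lower in *lux-1* at ZT1. *EDS1*, a lipase-like regulator of SA signaling whose promoter the study examined, had an interaction of -0.12 (standard error 0.22, adjusted p = 0.78), and *PR1* did not pass (-0.15, adjusted p = 0.95). A gene whose interaction did not pass can still differ between *lux-1* and Col-0 by a like amount at both times. Of the remaining most negative interactions, *LURP1*, needed for resistance to downy mildew, had 217, 193 and 57.2 RPKM in *lux-1* libraries, against 52.5, 23.7 and 35.9 RPKM in Col-0 libraries at ZT1 and an interaction of -2.62 (standard error 0.59, adjusted p = 0.02). *PCR1*, a cadmium resistance gene, had -2.55, AT1G13470 -2.30 and AT2G33830 -2.25 (adjusted p = 0.018, 0.025 and 0.0014). AT3G28300 and AT3G28290 had -2.73 and -2.68 (adjusted p = 0.0017 and 0.0021). These neighbors have nearly equal values in each library and may share reads.

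Of 17 flavonoid genes 5 passed with a positive and 1 with a negative interaction, none above 1 in size. *4CL3*, *F3H*, *CHS* and *CHI*, enzymes of the early pathway, lay between 0.53 and 0.72, and 2 genes passed with a positive interaction when Col-0 ZT1 replicate 2 was left out, or 3 when replicate 3 of Col-0 at ZT13 was. Of 13 wax genes *MYB96*, an activator of wax synthesis, passed with 0.73 and *CER6*, an enzyme of fatty acid elongation, with -0.36 (adjusted p = 0.012 and 0.093), but *CER6* passed under only 4 of 14 other settings and in 3 of 12 fits with 1 library left out. Of 13 genes of folding in the endoplasmic reticulum *PDIL1-1* and *SDF2* passed with -0.74 and -0.52 (adjusted p = 0.034 and 0.068), and *SDF2* passed under 9 of those settings and in 6 of those fits. When single libraries were left out, 1 to 3 wax genes and 1 to 4 of the folding genes passed. Over all genes tested, 4.11% passed with a positive and 10.2% with a negative interaction, so these small counts are not a trait of the wax or folding list. By limma 0 of 9 sugar starvation genes passed, with 1 at an unadjusted p under 0.05, 0 by limma voom and 1 each by edgeR and DESeq2. For 16 aliphatic glucosinolate genes the numbers were 0, with 1 at an unadjusted p under 0.05, 0 by limma voom and edgeR and 1 by DESeq2. For 8 sulfur starvation genes and 10 leaf senescence genes they were 0 by each of the 4 tools and 0 at an unadjusted p under 0.05. In these 4 lists at most 2 genes passed when a single library was left out.

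The floral and pollen coat markers summed highest in *lux-1* at ZT13. Of 20 floral organ and pollen coat markers 9 passed with a positive interaction, all of them pollen coat or anther genes that were higher in *lux-1* at ZT13, with a list median of 0.99. The 20 genes summed to 150, 82.3 and 59.9 RPKM in *lux-1* at ZT13, against 11.7, 4.50 and 8.07 RPKM in Col-0. At ZT1 they summed to 56.9, 19.6 and 15.4 RPKM in *lux-1* plants, against 6.03, 10.1 and 4.81 RPKM in Col-0 plants. *GRP19*, an oleosin of the pollen coat, had 25.0, 16.9 and 10.8 RPKM in *lux-1* at ZT13 and 3.69 RPKM in 1 *lux-1* library at ZT1, and was listed at 0 in the other *lux-1* libraries and in all Col-0 libraries. The lipase gene *EXL6*, the oleosin gene *GRP14* and AT1G75920 passed with 1.56, 1.53 and 0.80 (adjusted p = 0.0087, 0.032 and 0.015). The calls depended on the test, since 1 of the 20 passed by limma voom, 1 by edgeR and 0 by DESeq2 on recovered reads. The floral identity genes *LFY*, *AP1* and *SEP3* did not pass (-0.04, 0.96 and 0.55). The number of flowering plants per sample is not given in the sources used here, and its part in the values of other genes was not tested. Of 8 leaf markers *CA1* passed (0.58, adjusted p = 0.07), in 6 of 12 fits with 1 library left out. Over all genes 4.11% passed with a positive interaction, and 1 gene of 8 is not a trait of this list.

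The same interaction was measured in plants of the *acd6-1* background, which carry a gain-of-function allele of *ACD6* with constitutive defense, from 10 libraries of which none entered the results above. Of 21298 genes tested there 383 passed with a positive interaction (1.8%) and 213 with a negative one (1.0%), with 2 libraries per group at ZT13. Of the 395 genes called with a positive interaction in the Col-0 background 390 were tested in the *acd6-1* background, where 374 (95.9%) were positive and 212 (54.4%) passed with a positive sign. Over all genes tested in both, 41.5% were positive and 1.84% passed with a positive sign. Of the 306 genes with a negative interaction 305 were tested, of which 243 (79.7%) were negative and 42 (13.8%) passed with a negative sign, against 58.5% and 1.03% of all genes. The medians were 1.59 in the Col-0 and 1.24 in the *acd6-1* background for the positive genes, and -1.25 and -0.50 for the negative genes. The number passing in the *acd6-1* background varied from 154 without *acd6-1lux-1* ZT13 replicate 2 to 1241 without *acd6-1lux-1* ZT1 replicate 3, the library with 60.51% of its reads mapped, and 8 of its 10 libraries moved it by over 1.5 times.

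Over all genes tested, 4.11% passed with a positive and 10.2% with a negative sign with wild-type *ACD6*, and 1.8% and 1.0% with *acd6-1*. The counts of the lists are to be read beside this general fall. With wild-type *ACD6* and with *acd6-1*, 13 and 7 of 24 light signaling genes, 10 and 4 of 14 morning and daytime clock genes and 5 and 2 of 11 chlorophyll synthesis genes passed with a positive sign. With a negative sign, 6 and 2 of 16 evening clock genes and 4 and 0 of 24 SA genes passed. Of 16 cold response genes 4 and 0 passed with a positive and 6 and 1 with a negative sign. With *acd6-1*, *BBX28* had 2.59, adjusted p = 0.0025, *STO* 2.92, adjusted p = 0.0013, *LHCB2.1* 2.79, adjusted p = 0.0025, *PIF5* 2.39, adjusted p = 0.0013 and *CDF2* 2.61, adjusted p = 0.0078. Of the 19 antenna genes 12 passed with wild-type *ACD6* and 11 with *acd6-1*, each with a positive sign. *GRP7* had -3.45, adjusted p = 0.011, *PHS2* -1.76, adjusted p = 0.0024 and *LUX* 2.08, adjusted p = 0.013. Of the 30 rapid stress transcription factor genes 19 passed with a positive sign, *RRTF1* with 3.51, adjusted p = 0.0099, and of the 18 touch genes 8. Among the defense and JA genes with negative interactions in the Col-0 background, *PR2* had 0.06, *LURP1* -0.31 and *THI2.1* 1.65 (adjusted p = 0.96, 0.73 and 0.66). They do not stand for the other genes of this kind, whose values are not given here. For none of *PR2*, *LURP1* and *THI2.1* did the test of the difference between backgrounds, described below, pass. Of the heat shock genes 5 of 16 passed with wild-type *ACD6* and 10 of 15 with *acd6-1*, and of 9 sugar starvation genes 0 and 4, all with a positive sign. These counts do not test the difference between the backgrounds.

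The difference between the backgrounds was tested in 1 fit of all 22 libraries. It passed for 84 of 21666 genes (0.388%), 43 with the larger value in the Col-0 background and 41 with the smaller. Among the named genes, 5 rapid stress and touch genes had larger interactions in the Col-0 background, with differences of 2.29, adjusted p = 0.082, for *ORA47*, 2.14, adjusted p = 0.023, for *ERF104*, 1.69, adjusted p = 0.023, for *CAF1A*, 1.64, adjusted p = 0.062, for *ZAT10* and 1.4, adjusted p = 0.062, for *DREB26*. *NUDT4* and *BT5* differed by 2.06, adjusted p = 0.075, and 1.81, adjusted p = 0.062. *SOC1* was the only gene named by the rule that differed in the other direction (-0.98, adjusted p = 0.062). These genes were chosen by their interaction in the Col-0 background, which also enters the difference. The larger Col-0 values among them are therefore not a result. The most negative of the 84 differences was that of the galactosidase gene *BGAL4*, -2.93 (adjusted p = 0.023), and the SA regulator *PAD4* differed by -1.62 (adjusted p = 0.062), both named after their values were seen. *PAD4* had an interaction of -0.84 with wild-type *ACD6* and of 0.78 with *acd6-1*. *LHCB1.5*, likewise named after its values were seen, differed by -1.72 (adjusted p = 0.088). The number of 84 genes was 24 after median-of-ratios scaling and between 9 and 162 when single libraries were left out, the lowest in the absence of *acd6-1lux-1* ZT13 replicate 2 and the highest in that of *acd6-1lux-1* ZT1 replicate 1. In all, 15 of the 22 libraries moved it by over 1.5 times.

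**Figure D5:**
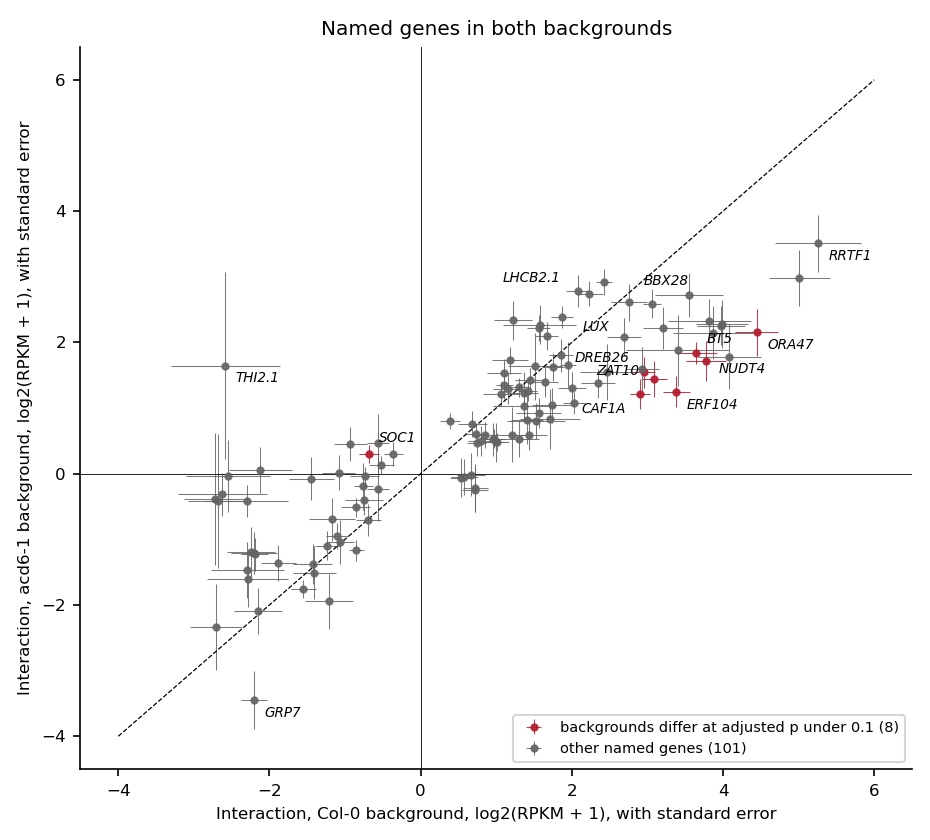
Interaction in the *acd6-1* background (vertical axis) against that in the Col-0 background (horizontal axis), both on log2(RPKM + 1) with standard errors. Points are the genes named by the rule and tested in both, and the dashed line marks equal values. Red points are the 8 genes for which the backgrounds differed at an adjusted p under 0.1, among them *ORA47* (4.45 and 2.16 in the Col-0 and *acd6-1* backgrounds). The Col-0 values chose the genes, so the spread along the horizontal axis is not a result.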

How the data were processed

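RNA-seq of whole plants was sequenced as single reads by the study. The authors deposited 1 table of RPKM values per transcript and library, normalized to mapped reads, for TAIR10. Their notes name CASAVA, while aligner and counter are not given in the sources used. A second table deposited by the authors gave the read counts sequenced and mapped per library. One column that belongs to no sample was not used beyond its identifiers, and 24867 of 25218 identifiers matched a RefSeq symbol.

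Transcripts with a mean above 0.3 RPKM in at least 1 of the groups fitted were kept, and log2(RPKM + 1) was fitted with limma 3.58.1 with a trended prior in R 4.3.3, with 1 mean per group and no covariate. P values measure the spread among these libraries. The 12 libraries, the 10 libraries of the *acd6-1* background and all 22 were fitted separately. Whole reads were recovered for 100.0% of values within 0.001 reads, and limma voom, edgeR 4.0.16 and DESeq2 1.42.0 were run on them as alternatives, with other pseudocounts (0.1 and 0.5), filters, scalings and fits with 1 library left out. Depth was 11628138 to 14252869 mapped reads. The limma fit of the interaction in the 12 libraries was tested on simulated data, and the other fits and tools were not.

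Genes named were *LUX*, the 10 largest and 10 smallest interactions that were called, had a mean above 5 RPKM in 1 group and did not overlap between genotypes at 1 time, the clock list members that passed, and up to 4 members per other list. The members and lists were chosen with earlier results of these data known.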

Additional observations from a re-analysis of the deposited data

Results flagged for a closer look

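The *lux-1* effect differed between ZT13 and ZT1 for 3015 genes, 701 of them with an interaction above 1 in size, by the test of the interaction in limma. The interaction in turn differed between the Col-0 and *acd6-1* backgrounds for 84 genes. Of the genes named by the rule, 8 were among the 84. Their interaction in the Col-0 background chose these 8 and also enters the difference, so its direction among them is not a result. The interaction was larger in the Col-0 background by 2.29 for *ORA47*, 2.14 for *ERF104*, 2.06 for *NUDT4*, 1.81 for *BT5*, 1.69 for *CAF1A*, 1.64 for *ZAT10* and 1.4 for *DREB26* on the log2 scale. For *SOC1* the difference was -0.98, that is, smaller in the Col-0 background. The adjusted p of these 8 lay between 0.023 and 0.082, and the group sizes at ZT13 were 3 in the Col-0 and 2 in the *acd6-1* background.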

How the results depend on the processing

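Against 3015 genes at an adjusted p under 0.1, 1790 passed at one under 0.05. Separate fits by limma voom and DESeq2 on recovered reads gave 1936 and 1992 genes. Leaving out single libraries gave 1813 (without Col-0 ZT1 replicate 2), with 1884 and 1939 without Col-0 ZT13 replicates 1 and 3, to 3355 (without *lux-1* ZT13 replicate 2). The 701 genes with a size above 1 stayed within 1.5 times, between 603 and 921 under the other settings and between 583 and 774 without single libraries. In the *acd6-1* background the 596 genes became 1488 in a fit of all 22 libraries, 345 at an adjusted p under 0.05 and 983 by DESeq2, and 154 to 1241 without single libraries (for *acd6-1lux-1* 180 and 154 without ZT13 replicates 1 and 2, and 348 and 1241 without ZT1 replicates 1 and 3; for *acd6-1* 232 and 237 without ZT13 replicates 1 and 2, and 266 and 308 without ZT1 replicates 2 and 3). The 84 genes that differed between backgrounds became 24 after median-of-ratios scaling, 20 without the variance trend, 14 at an adjusted p under 0.05, 23 by limma voom, 297 by DESeq2 and 9 to 162 without single libraries, of which 13 lowered it and 2 raised it by over 1.5 times. The causes were not tested. Over 111 named genes and their alternatives, 2762 of 2882 values kept direction and side of the threshold, 117 lost the threshold, and 3 changed sign, all for *EDS1*, which did not pass in any of these: 0.0011 after median-of-ratios scaling, 0.0035 after quantile normalization and 0.027 without *lux-1* ZT1 replicate 1, where leaving out single libraries gave -0.26 to 0.027. With the replicate number as a block, 2809 genes passed and 692 had a size above 1. The deviations of same-numbered libraries from their group means correlated at -0.293 to 0.23, and those of differently numbered libraries at -0.273 to 0.388. Whether the numbers mark a shared batch cannot be told from these overlapping ranges.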
